A study of Homo sapiens with 4 samples.

Results

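The 10 genes described here are NFE2L2, which encodes the transcription factor NRF2, KEAP1, which encodes its inhibitor, and 8 NRF2 target genes of glutathione, thioredoxin, quinone and heme metabolism. Their members on the array are the probe sets that the platform annotation gives to 1 gene only, that gene being on the list, and 20 of 54613 probe sets met this rule. By gene these are 10 of 19775, and every listed gene had at least 1 probe set.

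The samples were Kit225 cells, an established human T cell leukemia line that needs interleukin-2 (IL-2) to grow, and all 4 samples were kept in medium with 20 U/ml of IL-2. The treated group received NC1153, known as a blocker of JAK3, the kinase through which IL-2 receptors signal, at a labelled dose of 25 mM whose unit could not be checked here. The control group received the solvent DMSO at 0.1%. Both groups were harvested at 12 hours and have 2 arrays each, numbered replicate 1 and replicate 2. The labels do not say whether replicates are separate cultures, and p-values therefore measure only the spread between these arrays, which may be technical. In bulk RNA of this kind, fewer cells that express a gene and less of its RNA per cell cannot be told apart.

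NRF2 is a basic leucine zipper factor that is made and destroyed continuously. KEAP1 holds it and delivers it to a ubiquitin ligase, and oxidants or electrophiles that modify KEAP1 let newly made NRF2 reach the nucleus. There it pairs with a small MAF protein on antioxidant response elements and raises genes that make and recycle glutathione and thioredoxin. Much of this control acts on the NRF2 protein, which an RNA array does not measure.

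The promoters of these genes are shown because a shared element is the textbook link between them. RefSeq promoter windows of GRCh38.p14, each spanning 250 bases before to 50 bases after an annotated start, were matched for 8 of the 10 genes. HMOX1 and GSR had no entry. The core of the antioxidant response element, TGACNNNGC, was searched on both strands. It can overlap the AP-1 site TGANTCA, which none of the 6 matches in these genes did. GCLM, TXNRD1 and KEAP1 held the core, 3 of 8 genes (37.5%), against 2837 of 15382 genes on the array with a window (18.4%). Of all 35116 windows, 13.3% held it. No match was found for NFE2L2, NQO1, GCLC, SRXN1 or OSGIN1, which says only that these letters are not in this window.

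The 250 bases before the start are printed 5′ to 3′ on the strand of the gene, with the core in capitals, which reads GCNNNGTCA where it lies on the opposite strand. The windows are chr1:93909431-93909680 on the minus strand for GCLM, chr12:104286782-104287031 on the plus strand for TXNRD1 and chr19:10502772-10503021 on the minus strand for KEAP1.
GCLM: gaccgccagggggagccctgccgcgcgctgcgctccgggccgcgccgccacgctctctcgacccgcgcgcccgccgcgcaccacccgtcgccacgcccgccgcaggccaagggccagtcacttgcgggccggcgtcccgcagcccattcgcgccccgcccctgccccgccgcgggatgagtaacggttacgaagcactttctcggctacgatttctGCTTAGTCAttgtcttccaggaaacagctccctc
TXNRD1: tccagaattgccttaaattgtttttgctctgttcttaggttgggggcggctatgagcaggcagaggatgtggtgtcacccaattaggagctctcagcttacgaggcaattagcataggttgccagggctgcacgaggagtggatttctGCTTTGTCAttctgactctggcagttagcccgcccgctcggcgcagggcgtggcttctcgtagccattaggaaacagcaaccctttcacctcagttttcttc
KEAP1: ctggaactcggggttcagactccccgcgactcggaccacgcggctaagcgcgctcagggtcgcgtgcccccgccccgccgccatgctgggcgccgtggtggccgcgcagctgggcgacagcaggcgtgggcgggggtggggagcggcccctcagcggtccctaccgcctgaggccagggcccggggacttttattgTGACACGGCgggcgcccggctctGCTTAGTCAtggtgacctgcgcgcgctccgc

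Read on the strand of TGACNNNGC, the 25 bases around an element of each printed window are set side by side, core in capitals. The elements were picked because they share the narrower form TGACNAAGC, and part of their likeness follows from that choice.
GCLM: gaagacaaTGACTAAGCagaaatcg
TXNRD1: agtcagaaTGACAAAGCagaaatcc
KEAP1: ggtcaccaTGACTAAGCagagccgg
GCLM and TXNRD1 had the same base at 18 of the 25 positions, GCLM and KEAP1 at 17, and KEAP1 and TXNRD1 at 16. These counts include the bases of the core, most of which the choice of element fixed in advance. The narrower form TGACNAAGC, a motif chosen after these sequences were seen, stood in 121 of the 15382 genes (0.787%). Counted from the start, the element lay at bases -34 to -26 in GCLM, -102 to -94 in TXNRD1 and -31 to -23 in KEAP1. A second annotated start of TXNRD1 had 2 further matches to the broader core, at -99 to -91 and -8 to 1. A match is a description of the letters and not a bound site.

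Values are globally scaled signals, an intensity on a linear scale, and differences are NC1153 minus DMSO in log2 signal. Median signals were 61.8 to 88.6 over the 4 arrays. The scaling factor, per the file headers, was 6.68 for NC1153 replicate 1 and 2.66 to 2.97 for the other arrays. The 3′ to 5′ signal ratio of actin, a sign of RNA integrity, was 4.47 and 3.89 with NC1153 and 3.54 and 3.82 with DMSO, and that of GAPDH was 0.91 to 0.94 on all 4 arrays. All 18 spike-in control probe sets had a higher mean with NC1153, by 0.21 to 0.66 on the log2 scale. Centring the arrays on these controls, called spike-in centring, moved the median log2 difference of all probe sets from 0.022 to -0.41, so values with that setting are to be read against -0.41. Of 10 T cell markers, 4 lay above the median signal on all 4 arrays (IL2RA, CD2, CD4 and CD247). CD3G and LCK lay below it on each array, and CD3D, CD3E, CD5 and CD7 on 2 or 3 arrays. The summed marker signal was 28154 and 32639 with NC1153 and 35069 and 35082 with DMSO, and 635 and 1009 against 633 and 679 for 9 measured markers of other cells. Of those 9, HBB, KRT8 and CD79A lay above the median on all 4 arrays and none was called. The part of these values in the results below was not tested.

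In the brightest probe set of each gene, SRXN1, NQO1, TXNRD1, GCLM and GCLC rose between 1.74-fold and 3.62-fold after NC1153. In the same probe sets KEAP1, NFE2L2, GSR and OSGIN1 had higher signals on both NC1153 arrays than on both DMSO arrays, without passing the test. HMOX1, a well known NRF2 target, was dim and had no common direction. By limma with Benjamini-Hochberg adjustment over all probe sets at 0.05, 5 of the 10 genes were called higher and 0 lower, against 3.09% and 2.84% of all genes. All 5 lay above the median signal, where 5.06% of genes were called higher. At an unadjusted p under 0.05, 9 of the 10 genes were higher and 0 lower, against 10.7% and 9.66% of all genes. Among the 20 probe sets 10 were called higher and 0 lower, against 1.94% and 1.78% of all probe sets. Both NC1153 arrays lay above both DMSO arrays for 9 of the 10 genes and 16 of the 20 probe sets, where the whole array had 24.5% of genes and 22.8% of probe sets. The median log2 difference was 0.97 over the 10 genes and 0.002 over all genes. With spike-in centring the median of the 10 genes was 0.54 and 2 of them were called higher, against 0.248% of all genes. The 10 genes were chosen with earlier results of these data known. An excess over the whole array may partly follow from that choice.

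**Figure D1:**
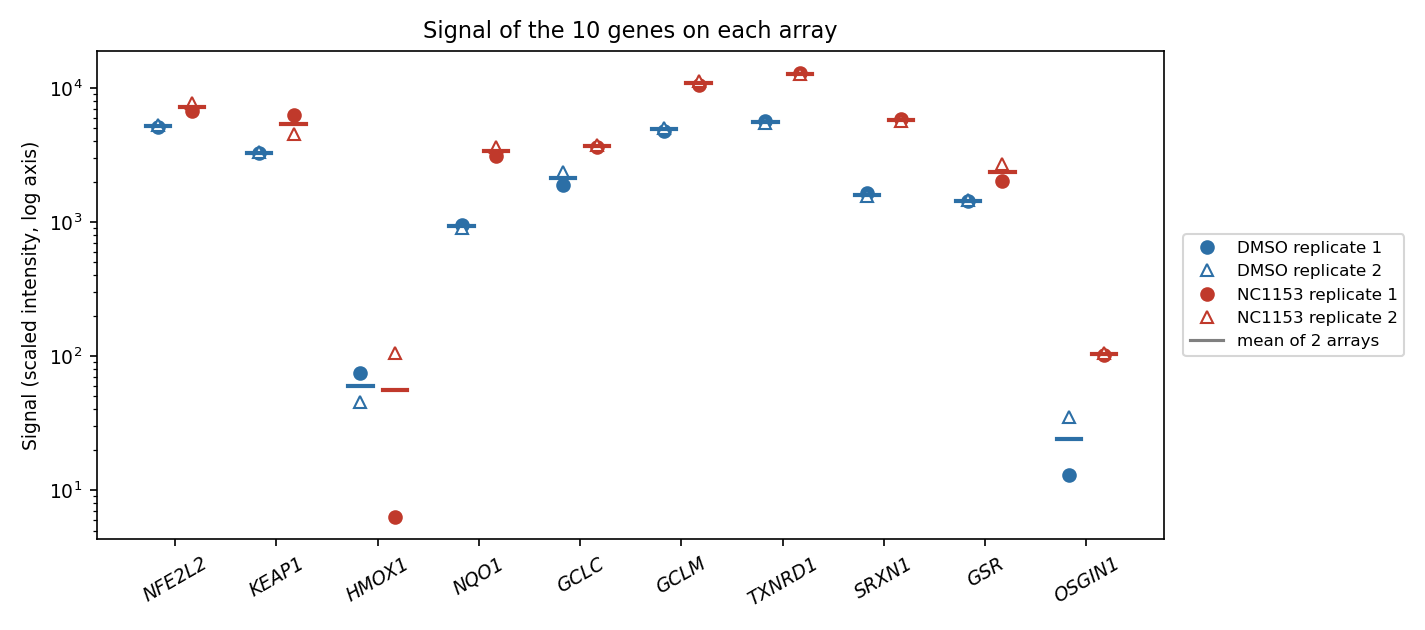
Signal of each gene's brightest probe set on each array, on a log axis, with DMSO arrays in blue and NC1153 arrays in red, circles for replicate 1, triangles for replicate 2 and bars for the mean of 2 arrays. The red points lie above the blue ones for 9 genes, and for HMOX1 the NC1153 arrays, at 6.29 and 106, lie on either side of the DMSO arrays.

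NFE2L2 and KEAP1 encode the factor and its sensor. The brightest probe set of NFE2L2 read 6698 and 7754 with NC1153 and 5139 and 5296 with DMSO. The groups do not overlap, and the 2 NC1153 arrays differed from each other more than the DMSO arrays did. The log2 difference was 0.47 (95% interval 0.16 to 0.77, n = 2 each), which did not pass (limma adjusted p = 0.11), and it was 0.036 with spike-in centring. A dimmer probe set of NFE2L2 read 328 and 431 with NC1153 and 149 and 127 with DMSO. It was called higher, with a log2 difference of 1.45 (0.73 to 2.17, limma adjusted p = 0.040). The intervals of these probe sets overlap, and the difference in size between them was not tested. Leaving out 1 array gave 1.25 to 1.65 for this dimmer probe set. Its call was lost without NC1153 replicate 1, without NC1153 replicate 2 and without DMSO replicate 2. With all 4 arrays this probe set passed without dim probe sets (limma adjusted p = 0.023) and with the replicate number as a block (0.0093). It did not pass with quantile normalization (limma adjusted p = 0.069), log2(signal + 50) (0.055), median centring (0.40) or spike-in centring, at 1.02 (0.23). The third, annotated to the same source sequence as the called one, read 20.5 and 5.92 with NC1153 and 4.10 and 61.2 with DMSO. Its groups overlap, and its log2 difference was -0.53 (-3.90 to 2.84, limma adjusted p = 0.93). A further probe set shared with CSNK2A1 is outside the rule, and its log2 difference was -0.60 (limma adjusted p = 0.18).

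KEAP1 read 6304 and 4519.9 with NC1153 and 3271 and 3322 with DMSO. Both treated arrays were high, and replicate 1 was the higher of them. Its log2 difference was 0.70 (0.31 to 1.08, n = 2 each), or 1.62-fold, just outside the threshold (limma adjusted p = 0.060). Leaving out 1 array gave 0.46 to 0.94. KEAP1 passed without dim probe sets (limma adjusted p = 0.028) and with the replicate number as a block (0.0051). It did not pass with quantile normalization (limma adjusted p = 0.060) or median centring (0.50), and with spike-in centring it was 0.26 (0.52). The KEAP1 promoter window printed above, from 1 of 2 annotated starts, holds the core at 2 places. The window of the other start holds none.

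GCLC and GCLM encode the catalytic and modifier subunits of glutamate-cysteine ligase, the enzyme that sets the rate of glutathione synthesis. GCLM read 10553 and 11281 with NC1153 and 4776 and 5071 with DMSO. The means were 10917 ± 515 and 4923 ± 208 (SD, n = 2 each), a log2 difference of 1.15 (0.86 to 1.44) that passed (limma adjusted p = 0.0028). Its other probe sets were also called higher, with log2 differences of 1.25 and 0.98 (limma adjusted p = 0.0073 and 0.042). All 3 therefore rose, and their log2 differences lay within 0.98 to 1.25. With spike-in centring the brightest was at 0.72 and did not pass (limma adjusted p = 0.12).

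GCLC read 3614 and 3757 with NC1153 and 1895 and 2366 with DMSO. The treated arrays were close together, and DMSO replicate 1 was the lowest of the 4. The log2 difference was 0.80 (0.45 to 1.15, n = 2 each, limma adjusted p = 0.024), which is 1.74-fold. It lost the call without NC1153 replicate 1 (limma adjusted p = 0.071), without NC1153 replicate 2 (0.057) and without DMSO replicate 1 (0.20). With spike-in centring it was 0.37 (limma adjusted p = 0.47). A second probe set had a log2 difference of 0.61 (limma adjusted p = 0.067). The third read 107 and 129 with NC1153 and 40.8 and 135 with DMSO, and its groups overlap. The intervals of GCLC and GCLM overlap, and the difference between the subunits was not tested.

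GSR encodes glutathione reductase, which returns oxidised glutathione to its reduced form with NADPH. It read 2032 and 2709.5 with NC1153 and 1433 and 1462.5 with DMSO. Both treated arrays were higher, replicate 2 more so. The log2 difference of 0.70 (0.31 to 1.08, n = 2 each) did not pass (limma adjusted p = 0.063), and leaving out 1 array gave 0.49 to 0.90. GSR passed without dim probe sets (limma adjusted p = 0.026) and with the replicate number as a block (0.0089). It did not pass with quantile normalization (limma adjusted p = 0.056) or median centring (0.62). A second probe set had a log2 difference of 0.64 (limma adjusted p = 0.16), with 1129.9 and 1656 against 802 and 957. With spike-in centring the brighter GSR probe set was at 0.27 (limma adjusted p = 0.67).

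TXNRD1 encodes cytosolic thioredoxin reductase, a selenoprotein that keeps thioredoxin reduced. It read 12944 and 12627 with NC1153 and 5634 and 5483 with DMSO. The arrays within each group were close together and the groups far apart. The log2 difference was 1.20 (0.92 to 1.48, n = 2 each, limma adjusted p = 0.0020), and it was 1.20 within replicate 1 and within replicate 2. Another TXNRD1 probe set was near the bottom of the scale, at 2.80 to 8.01, and its groups overlap. With spike-in centring TXNRD1 was at 0.77 and did not pass (limma adjusted p = 0.082).

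SRXN1 encodes sulfiredoxin, which restores peroxiredoxins that peroxide has overoxidised. It read 5884 and 5667 with NC1153 and 1636 and 1556 with DMSO. The groups lay far apart, and SRXN1 had the smallest adjusted p among the probe sets that stand for the 10 genes, with a log2 difference of 1.86 (1.55 to 2.16, n = 2 each, limma adjusted p = 0.00045). The difference was 1.85 within replicate 1 and 1.86 within replicate 2. It passed with spike-in centring as well, at 1.43 (limma adjusted p = 0.017).

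NQO1 encodes an enzyme that reduces quinones fully and so avoids the reactive semiquinone. Its brightest probe set read 3104 and 3643 with NC1153 and 957 and 907 with DMSO. The log2 difference was 1.85 (1.50 to 2.20, n = 2 each, limma adjusted p = 0.00087). The other probe sets had log2 differences of 2.56 (2.12 to 2.99) and 2.32 (1.81 to 2.82), and both were called higher (limma adjusted p = 0.00054 and 0.0017). In fold terms NQO1 was thus 3.61-fold to 5.88-fold higher, depending on the probe set. With spike-in centring all 3 still passed, at 1.42, 2.13 and 1.89 (limma adjusted p = 0.029, 0.016 and 0.025).

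HMOX1 encodes heme oxygenase-1, which breaks heme down to biliverdin, iron and carbon monoxide. Its probe set read 6.29 and 106 with NC1153 and 75.0 and 45.5 with DMSO. Each group had 1 signal above and 1 below the median of its array, and the groups overlap, with NC1153 replicate 1 the lowest and replicate 2 the highest of the 4. The log2 difference was -1.18 with an interval of -4.13 to 1.77 (limma adjusted p = 0.77), so a difference in either direction was not detectable at this signal. It was 0.85 without NC1153 replicate 1, whose scaling factor was the largest, and -3.22 without NC1153 replicate 2.

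OSGIN1 encodes a growth inhibitor induced by oxidative stress. The OSGIN1 probe set read 102 and 105 with NC1153 and 12.9 and 34.9 with DMSO. The treated arrays were nearly equal, and the 2 DMSO arrays differed from each other by more than the NC1153 arrays did. The log2 difference was 2.28, and with an interval of 0.30 to 4.26 it did not pass (limma adjusted p = 0.24). On the scale of log2(signal + 50), which shrinks low signals, it was 1.07.

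**Figure D2:**
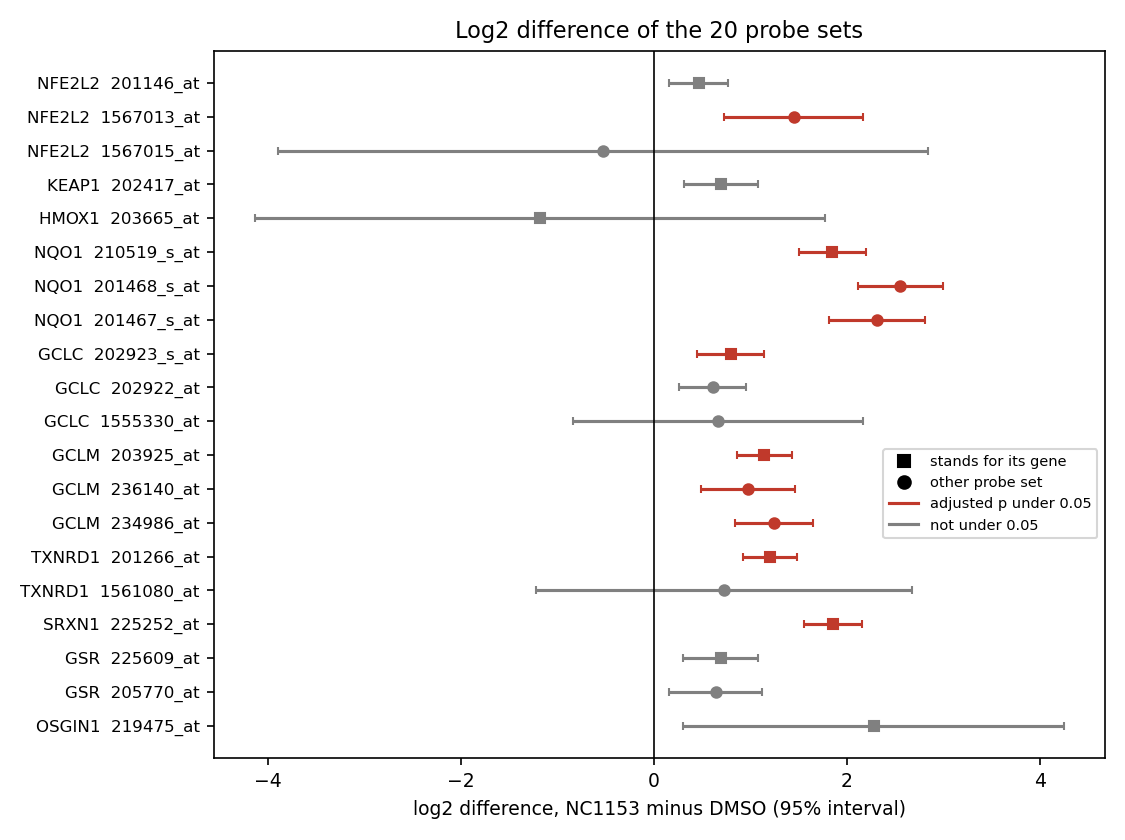
Log2 difference, NC1153 minus DMSO, of the 20 probe sets with 95% intervals from limma, squares for the probe set that stands for its gene, and red for an adjusted p under 0.05. The 3 probe sets of NQO1 lie at 1.85 to 2.56 and the 3 of GCLM at 0.98 to 1.25, while the intervals of HMOX1 and of the dimmest probe sets of NFE2L2 and TXNRD1 span 0.

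By brightest probe set and in order of size, the called genes were SRXN1 (1.86), NQO1 (1.85), TXNRD1 (1.20), GCLM (1.15) and GCLC (0.80). With all probe sets of a gene averaged, NQO1 (2.24) came before SRXN1 (1.86). The intervals of SRXN1 and NQO1 overlap, as do those of TXNRD1, GCLM and GCLC. The lower ends of SRXN1 (1.55) and NQO1 (1.50) lie above the upper ends of TXNRD1 (1.48) and GCLM (1.44), although differences between genes were not tested. With that averaging 3 of the 10 genes were called (1.59% of all genes), and TXNRD1 and GCLC were lost (limma adjusted p = 0.18 and 0.22). Without dim probe sets 7 were called (7.97%), as at an adjusted p under 0.1 (4.69%). Leaving out NC1153 replicate 1, NC1153 replicate 2, DMSO replicate 1 or DMSO replicate 2 left NQO1, GCLM, TXNRD1 and SRXN1 called each time, where 1.49%, 3.35%, 2.05% and 2.59% of all genes were called higher. With median centring none of the 10 passed by limma, against 0.0708% of all genes, and SRXN1 came nearest at 1.77 (limma adjusted p = 0.062), while 7 were higher at an unadjusted p under 0.05 (4.28% of all genes). Without a trend in the prior variance and with the ordinary test per probe set, 0 of the 10 and 0% of all genes were called, while 5 and 6 of the 10 were higher at an unadjusted p under 0.05, against 4.81% and 7.73% of all genes. Among the 612 genes called higher on the array, SRXN1 was the 55th and NQO1 the 56th by log2 difference, TXNRD1 the 182nd, GCLM the 208th and GCLC the 445th. The 5 genes whose profile over the 4 arrays lay nearest to that of SRXN1, by Euclidean distance between log2 signals centred on each gene's mean, were TFPI (0.079), TSC22D3 (0.093), PPP1R15A (0.17), ZFAND2A (0.20) and NQO1 (0.20). With 2 arrays per group such a profile largely repeats the log2 difference, which was 1.85 to 2.03 in these 5 genes. TFPI encodes a coagulation inhibitor, TSC22D3 the glucocorticoid-induced protein GILZ and PPP1R15A a phosphatase subunit that reverses eIF2 alpha phosphorylation.

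The authors' deposited table, a selection at a q-value limit of 0.05 from RMA log2 values of the same arrays, lists 8 of the 20 probe sets (40%), all higher, against 2.43% of all probe sets listed higher. In the authors' deposited table the RMA log2 differences were 1.83 for SRXN1, 1.29 for TXNRD1, 1.21 for GCLM and 0.77 for GCLC in the brightest probe sets, each within 0.1 of the value from the signals. For NQO1 the authors' deposited table gave 1.75, 1.87 and 1.73, lower than the 1.85, 2.56 and 2.32 from the signals. A second GCLM probe set was at 1.38 in the authors' deposited table and at 1.25 from the signals. The selection of the authors' deposited table lists no probe set of NFE2L2, KEAP1, HMOX1, GSR or OSGIN1.

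**Figure D3:**
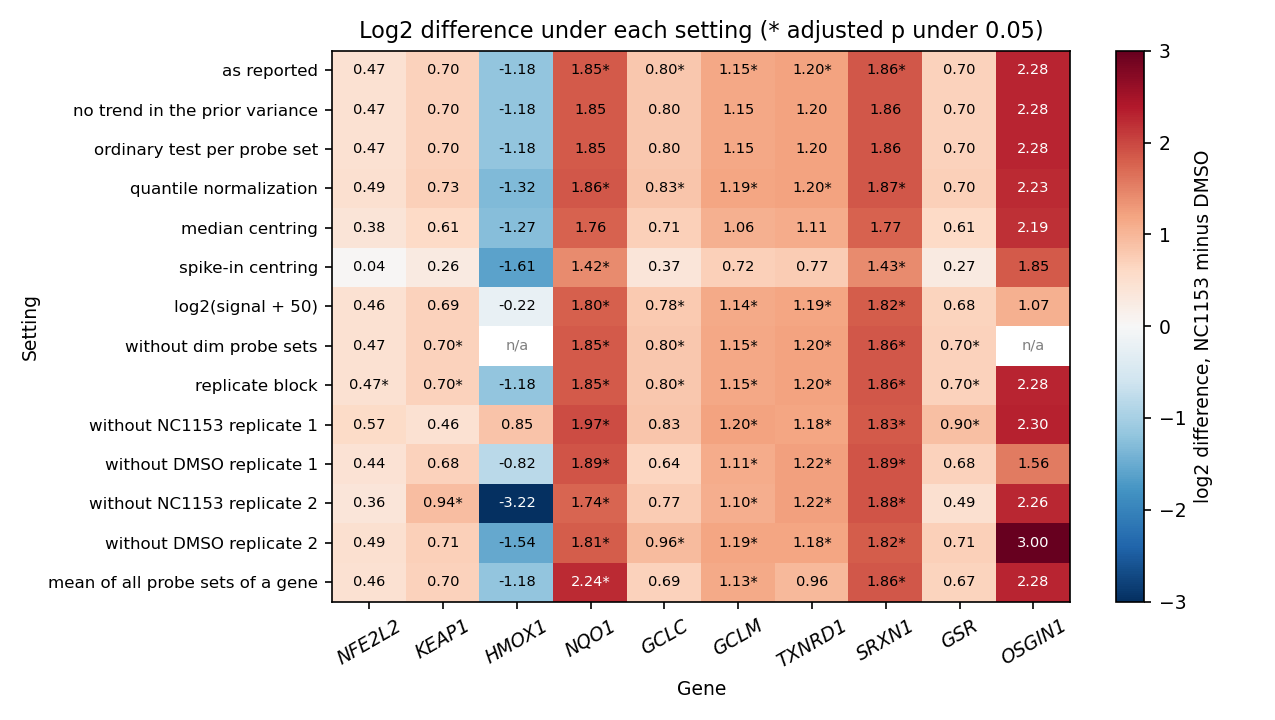
Log2 difference, NC1153 minus DMSO, of the 10 genes (columns) under each setting of the fit (rows), coloured from blue (negative) to red (positive), with an asterisk for an adjusted p under 0.05 and n/a where a dim probe set was filtered out. SRXN1 stays between 1.43 and 1.89 over the settings, HMOX1 ranges from -3.22 to 0.85, and of the 13 other settings GCLM was called in 9 and TXNRD1 in 8.

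Wider genes of the pathway, in 7 lists without the 10 genes, moved in both directions. The lists follow biochemical themes and were chosen with earlier results of these data known. Whether NRF2 acts on their genes was not tested. Of 122 measured genes 19 rose, 5 fell and 98 did not pass, against 3.09% of all genes called higher and 2.84% lower. Their median log2 difference was 0.099, and -0.33 with spike-in centring.

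The proteins that control NRF2 gave 5 rises and 1 fall among 17, against 3.09% of all genes called higher and 2.84% lower. SQSTM1, the autophagy receptor p62 that competes with NRF2 for KEAP1, had signals of 16759 and 19117 with NC1153 and 3522 and 3467 with DMSO. It rose by 2.36 on the log2 scale (limma adjusted p = 0.00018), and 1 of its 5 probe sets had the opposite sign. The small MAF genes MAFF and MAFG, which encode partners of NRF2 on DNA, rose by 2.19 and 1.55, and BACH1, a repressor that competes with NRF2 for the element, by 1.71 (limma adjusted p = 0.035, 0.013 and 0.0051). Of the 3 probe sets of BACH1, 1 had the opposite sign. The calls of MAFF and MAFG were lost without NC1153 replicate 1 (limma adjusted p = 0.15 and 0.080), without NC1153 replicate 2 (0.12 and 0.051) and with spike-in centring (0.12 and 0.13). The related factor genes NFE2L1, which rose by 1.40 and lost its call with spike-in centring (limma adjusted p = 0.063), and NFE2L3, which fell by 1.22, are named after their values were seen. CUL3, the scaffold of the KEAP1 ubiquitin ligase, had a log2 difference of -0.028 (limma adjusted p = 0.96).

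Of 36 glutathione genes 3 rose and 1 fell, against 3.09% of all genes called higher and 2.84% lower. SLC7A11 and SLC3A2, the chains of the cystine importer that feeds glutathione synthesis, rose by 2.14 and 2.08 on the log2 scale (limma adjusted p = 0.00046 for each). CHAC1, which degrades glutathione, rose by 1.51 and its relative CHAC2 fell by 0.96 (limma adjusted p = 0.0083 and 0.011). GSS, which encodes the second enzyme of glutathione synthesis, had a log2 difference of 0.39 (limma adjusted p = 0.26). No glutathione peroxidase or transferase gene of the list passed. The list median was -0.037, and the CHAC1 call was lost with spike-in centring (limma adjusted p = 0.11).

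The thioredoxin and peroxiredoxin list, which also holds sestrin genes, gave 2 rises among 16, against 3.09% of all genes. The 2 were SESN2 at 1.63 and SESN1 at 0.96 (limma adjusted p = 0.0018 and 0.031). Both encode sestrins, stress proteins that restrain mTORC1, and no thioredoxin or peroxiredoxin gene of the list passed. The SESN1 call was lost on leaving out any of the 4 arrays (limma adjusted p = 0.056 to 0.10) and with spike-in centring (0.35). TXN, the substrate of TXNRD1, had a log2 difference of 0.19 and PRDX1, a substrate of SRXN1, of 0.27 (limma adjusted p = 0.54 and 0.46).

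Heme and iron genes were split, with 3 rises and 3 falls among 15, against 3.09% of all genes called higher and 2.84% lower. BLVRB, a biliverdin reductase, rose by 1.63 on the log2 scale and SLC48A1, a heme transporter, by 1.44 (limma adjusted p = 0.0011 and 0.014). TFRC, the transferrin receptor, read 10898 and 11513 with NC1153 and 26938 and 28346 with DMSO and fell by 1.30 (limma adjusted p = 0.0017). HMOX2, the constitutive relative of HMOX1, fell by 0.91 (limma adjusted p = 0.0098). FECH, which inserts iron into heme, was called higher at 0.76 and CPOX, an earlier enzyme of heme synthesis, lower at -0.71, both named after their values were seen. FECH lost its call without DMSO replicate 1 (limma adjusted p = 0.080), without DMSO replicate 2 (0.052) and with spike-in centring (0.50). CPOX lost it without NC1153 replicate 1 (limma adjusted p = 0.091), without DMSO replicate 1 (0.22) and with spike-in centring (0.055). The SLC48A1 call was lost without NC1153 replicate 2 (limma adjusted p = 0.055) and with spike-in centring (0.17).

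NADPH supply gave 2 rises among 13 genes, against 3.09% of all genes. The 2 were IDH1 at 1.33 and MTHFD2 at 0.55 on the log2 scale (limma adjusted p = 0.0020 and 0.046). IDH1 makes NADPH from isocitrate, and MTHFD2 is a mitochondrial folate enzyme. The MTHFD2 call was lost without DMSO replicate 1 (limma adjusted p = 0.55), without DMSO replicate 2 (0.40) and with spike-in centring (0.80), where IDH1 was at 0.90 (0.066). The pentose phosphate gene PGD had a log2 difference of -0.008 (limma adjusted p = 0.99).

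Quinone and carbonyl reducing enzymes gave 4 rises among 19, against 3.09% of all genes. AKR1C2 and AKR1C1, aldo-keto reductases of near-identical sequence whose probe sets may not tell them apart, rose by 2.71 and 1.89 on the log2 scale (limma adjusted p = 0.0034 and 0.016). NQO2, the relative of NQO1, rose by 1.21 and CBR3, a carbonyl reductase, by 1.13 (limma adjusted p = 0.0045 and 0.0083). Of the 3 probe sets of AKR1C2, 1 had the opposite sign. Without NC1153 replicate 1 or replicate 2 AKR1C1 was no longer called (limma adjusted p = 0.067 and 0.069), and with spike-in centring AKR1C1, NQO2 and CBR3 all lost their calls (0.11, 0.14 and 0.16).

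None of the 6 genes for superoxide and peroxide removal passed by limma, with 2 higher and 0 lower at an unadjusted p under 0.05, where 10.7% of all genes were higher and 9.66% lower. SOD3 had the widest difference, at 0.61 (limma adjusted p = 0.74), and SOD1, the cytosolic superoxide dismutase, was at 0.40 (limma adjusted p = 0.14). SOD1 read 26131 and 26206 with NC1153 and 19877 and 19870.4 with DMSO, so its groups do not overlap.

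**Figure D4:**
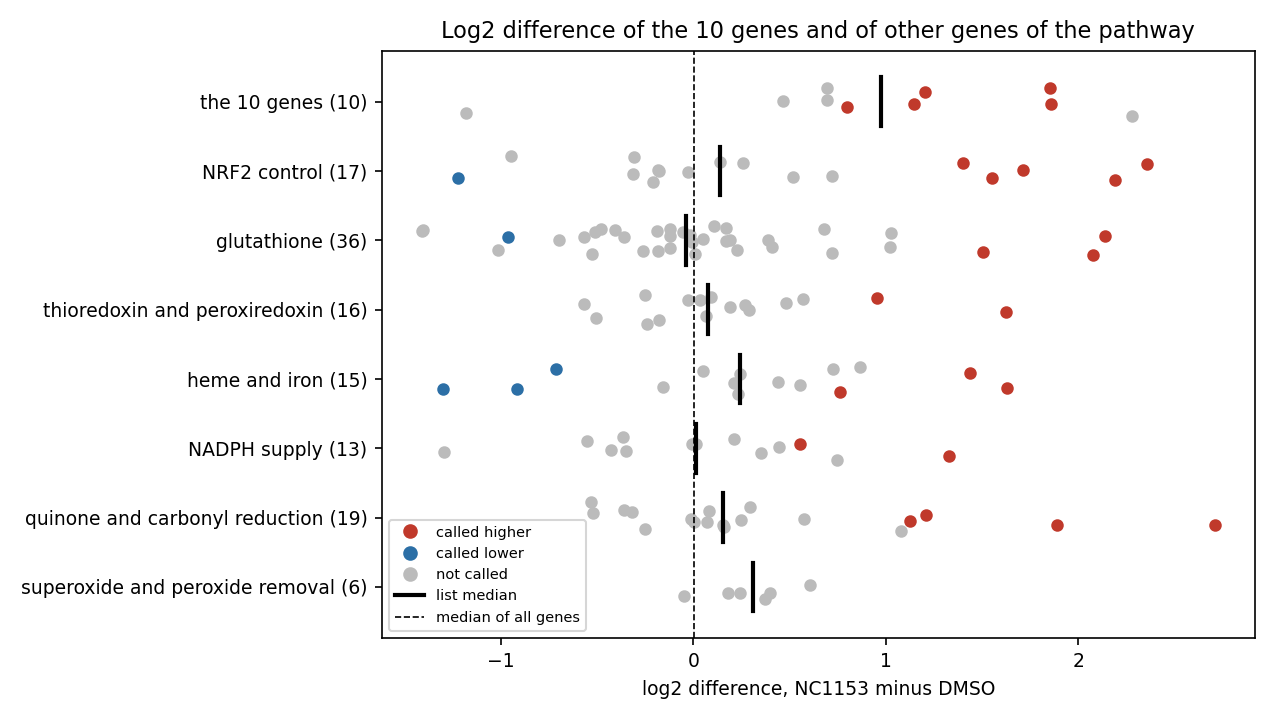
Log2 difference, NC1153 minus DMSO, of each measured gene in the 10 genes and in 7 lists of other pathway genes, red for called higher, blue for called lower and grey for not called, with the list median as a bar and the median of all genes as a dashed line. The bar of the 10 genes lies at 0.97 and those of the other lists between -0.037 and 0.31.

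Among the other pathway genes, the broader core TGACNNNGC stood in the promoter windows of 6 of 17 called higher (35.3%) and 18 of 86 others (20.9%), against 18.4% of all genes on the array. The 6 were MAFF, SLC3A2, SESN1, FECH, IDH1 and MTHFD2, and the match of SLC3A2 overlaps the AP-1 site TGANTCA. The narrower TGACNAAGC stood in 3 of these pathway genes, MGST1, ABCB6 and CCS, of which none was called (limma adjusted p = 0.97, 0.051 and 0.96).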

How the data were processed

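The 4 RNA samples of Kit225 cells, hybridised to HG-U133 Plus 2.0 arrays, were grouped by sample title. The deposited intensity values are signals for 54675 probe sets, scaled by the authors with the factors given per the file headers, and their 2% trimmed mean is nearly the same on each array. The software is not given in the sources used here. A second deposited table holds the authors' RMA log2 values and raw p-values for 2252 probe sets selected by limma and Storey q-values, per the file headers, and served only as a comparison.

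Log2 of the signal was fitted over 54613 non-control probe sets by limma 3.58.1 (R 4.3.3), using lmFit and then eBayes with a mean-variance trend, two-sided, with Benjamini-Hochberg adjustment over all of them and 0.05 as the threshold. The fit has 2 residual and 7.27 prior degrees of freedom, and the number of arrays limits every value. Probe sets with 1 gene in the platform annotation (41091) were named, with symbols updated from RefSeq for 41037, and the one with the highest mean stands for its gene. Genes named are all 10, then from each list the 4 called ones with the largest difference, or 2 as values where none was called, and the 5 nearest profiles. Genes set beside them as values, such as CUL3, GSS, TXN, PRDX1 and PGD, were chosen after their values were seen. The members and lists were chosen with earlier results of these data known. Tested on simulated data over 54613 probe sets, the fit recovered 60% of log2 changes of 2 but 9% of changes of 1. The simulation changed far fewer probe sets than were called in the data, all of them above the median signal. Its shares therefore do not give the share of real changes that the fit missed. Alternatives changed the variance model, the normalization, low-value handling, the replicate block, the threshold, the probe set rule and the arrays used.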

Additional observations from a re-analysis of the deposited data

How the results depend on the processing

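Of the 10 genes, 9 had a positive difference in each of the 13 other settings of the fit that gave a value. Settings that change only the variance model, drop dim probe sets or add the replicate block leave the difference itself unchanged. For a gene with 1 probe set, averaging its probe sets also changes nothing, so the signs in such settings add no support. HMOX1 reversed to 0.85 without NC1153 replicate 1, within a range of -3.22 to 0.85 on leaving out 1 array. The 5 genes called higher became 0 without a trend in the prior variance, with the ordinary test per probe set and with median centring (5, 6 and 7 at an unadjusted p under 0.05, against 4.81%, 7.73% and 4.28% of all genes), 2 with spike-in centring (NQO1 and SRXN1), 3 with the mean of all probe sets of a gene and 8 with the replicate number as a block (5.39% of all genes), adding NFE2L2, KEAP1 and GSR (limma adjusted p = 0.046, 0.0051 and 0.0089). Leaving out 1 array gave 4 to 5 genes and 9 probe sets. The 10 probe sets became 0 without a trend and with the ordinary test, 1 with median centring and 4 with spike-in centring. Of the other pathway genes, 19 higher and 5 lower became 0 and 0 without a trend and with the ordinary test, 2 and 0 with median centring, and 7 and 5 with spike-in centring. Those lower were 9 without dim probe sets and at an adjusted p under 0.1, 10 with the replicate block and 3 with the mean of all probe sets, and leaving out 1 array gave 4 to 9. Over the whole array, 1062 higher and 971 lower became 0 and 0 without a trend and with the ordinary test (5300 and 6110 at an unadjusted p under 0.05). They became 23 and 24 with median centring, 1722 and 1587 without dim probe sets, 2061 and 1936 with the replicate block and 1725 and 1588 at an adjusted p under 0.1. Spike-in centring gave 85 higher and 1019 lower, and leaving out 1 array gave 487 to 1197 higher and 643 to 1429 lower. The labels do not say that the replicate number marks a shared batch, and over all probe sets the correlation of group-mean deviations between arrays of the same number was 0.055, and 0.12 over the brighter ones. Array names in the file headers share a number within each replicate, whose meaning is not stated. The cause of these changes was not tested. Dim probe sets, such as those of HMOX1 and OSGIN1, allow no firm statement.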
